A study of Mus musculus with 2 samples.

Results

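The common gamma chain cytokine receptors are built around 1 shared subunit, the product of Il2rg, which pairs with cytokine-specific chains. The members described here are the 7 genes Il2rg, Il2rb, Il2ra, Il15ra, Il7r, Il4ra and Il21r, of 21755 protein-coding genes on chromosomes 1 to 19 and X in the GENCODE M21 annotation (mm10 build). They were taken by name from a list, and the rule itself used no measured value. For each gene, accessible sites were taken from the gene body and 20 kb on each side. The data are DNase-seq, in which the enzyme DNase I cuts nuclear DNA where chromatin is accessible and the cuts are sequenced. The tissue was thymus from adult female B6CASTF1/J mice, an F1 hybrid of the B6 and CAST strains, at 18 to 20 months of age, with no treatment named in the labels. The 2 libraries form 1 group, and the labels call them biological replicates 1 and 2. They have different biosample records under 1 donor record, and separate animals are not stated, so their spread may be technical. No other age, sex or tissue was compared here. The tissue was not sorted, so each value mixes all cell types of the thymus and both parental alleles.

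As background, the shared gamma chain binds the kinase JAK3, while the other signalling chains bind JAK1. Cytokine binding brings the chains together, and the kinases then phosphorylate STAT transcription factors, mainly STAT5 for IL-2, IL-7 and IL-15, STAT6 for IL-4 and STAT3 for IL-21. In the thymus, IL-7 is the main survival and growth signal of the earliest T cell precursors and the receptor is shut off at the CD4 and CD8 double-positive stage, which makes up most of the organ. Il2ra encodes CD25, which marks an early precursor stage and regulatory T cells. Loss of Il2rg or Il7r leaves mice with a very small thymus.

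Each library had a shorter and a longer list of peaks, with 50648 and 49872 peaks in the shorter lists of replicates 1 and 2. A value is a peak of the shorter list unless the longer list is named. The peak signal is the height that the authors deposited, on a scale that is not stated. It had a median of 1.66 and 1.43 over the shorter lists. Footprints, short stretches within accessible DNA that are protected from cutting, numbered 223227 and 247677, and only their positions were used. Sequencing depth is unknown. Signal values were whole multiples of a step of 0.00895 in replicate 1 and 0.00652 in replicate 2, within a tolerance of 0.1 steps. Across 37494 pairs of peaks that overlapped 1 to 1, replicate 2 was lower by a median that put its log2 ratio to replicate 1 at -0.17. Ratios between the libraries are given after that median was subtracted, and their SD over all pairs was 0.44 on the log2 scale.

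The sequences below are the sites on which the account of the 7 genes turns: the promoter of the shared chain, the site far upstream of Il2rb, the strongest intronic sites of Il2ra, Il4ra and Il21r, the strongest site beyond Il21r, and the weak site upstream of Il7r. All come from the GRCm38 reference, which is the B6 sequence, are written 5′ to 3′ on the strand of the gene, and leave out annotated exons. Capitals mark bases that lay in a footprint of both libraries.
Il2rg promoter, chrX:101268256-101268360, - strand: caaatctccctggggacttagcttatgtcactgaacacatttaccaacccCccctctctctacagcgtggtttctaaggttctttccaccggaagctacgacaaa
Il2rb upstream site, chr15:78514621-78514860, - strand: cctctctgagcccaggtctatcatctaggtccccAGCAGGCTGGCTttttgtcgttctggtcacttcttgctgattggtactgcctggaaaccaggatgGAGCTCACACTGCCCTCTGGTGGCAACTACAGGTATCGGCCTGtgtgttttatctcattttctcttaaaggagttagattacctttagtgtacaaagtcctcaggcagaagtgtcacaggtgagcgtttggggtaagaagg
Il2ra intron 1, strongest site, chr2:11664041-11664260, + strand: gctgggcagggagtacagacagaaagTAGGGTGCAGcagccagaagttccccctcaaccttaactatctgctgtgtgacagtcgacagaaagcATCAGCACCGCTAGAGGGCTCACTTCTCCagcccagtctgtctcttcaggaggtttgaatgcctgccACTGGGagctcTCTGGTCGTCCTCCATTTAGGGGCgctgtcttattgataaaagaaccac
Il2ra intron 1, next strongest site, chr2:11653421-11653660, + strand: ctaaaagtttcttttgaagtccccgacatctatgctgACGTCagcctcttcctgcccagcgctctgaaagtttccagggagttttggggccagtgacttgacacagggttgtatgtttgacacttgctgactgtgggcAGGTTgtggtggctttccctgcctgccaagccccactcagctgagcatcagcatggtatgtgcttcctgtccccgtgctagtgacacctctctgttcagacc
Il7r upstream site, chr15:9533469-9533595, - strand: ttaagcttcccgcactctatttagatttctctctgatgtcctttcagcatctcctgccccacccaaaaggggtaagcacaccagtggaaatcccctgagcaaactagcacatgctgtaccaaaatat
Il4ra intron 1, chr7:125556881-125557120, + strand: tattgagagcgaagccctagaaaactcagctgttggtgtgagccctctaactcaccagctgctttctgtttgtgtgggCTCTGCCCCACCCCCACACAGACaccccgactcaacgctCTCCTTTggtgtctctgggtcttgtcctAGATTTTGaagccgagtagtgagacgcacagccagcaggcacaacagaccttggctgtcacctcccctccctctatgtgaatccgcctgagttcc
Il21r intron 1, chr7:125605761-125605980, + strand: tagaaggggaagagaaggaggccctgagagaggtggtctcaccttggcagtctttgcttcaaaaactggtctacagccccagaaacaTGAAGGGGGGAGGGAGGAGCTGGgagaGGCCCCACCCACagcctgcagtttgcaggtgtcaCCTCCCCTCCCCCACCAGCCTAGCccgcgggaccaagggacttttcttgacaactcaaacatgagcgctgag
Il21r downstream site, chr7:125635561-125635800, + strand: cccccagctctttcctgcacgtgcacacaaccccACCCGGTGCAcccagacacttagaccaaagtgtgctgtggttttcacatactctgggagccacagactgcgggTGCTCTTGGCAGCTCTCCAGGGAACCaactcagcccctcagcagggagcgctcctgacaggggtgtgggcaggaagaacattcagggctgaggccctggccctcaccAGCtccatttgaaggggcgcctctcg
In the Il2rg promoter, a cggaag word, the core that ETS factors bind, lay at bases 90 to 95 of the printed stretch. It overlapped a footprint of replicate 1 and none of replicate 2. In the weaker of the 2 Il2ra intron sites, a cyclic AMP response element, TGACGTCA, lay at bases 36 to 43, with 5 of its bases in footprints of both libraries. A RUNX word, tgtggt, followed at bases 143 to 148. In the strongest Il2ra intron site, capitals covered 69 of 220 bases, against 59 of 220 in the intron of Il21r and 38 of 240 in that of Il4ra. The printed Il7r site held no base in footprints of both libraries and none of the words searched.

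Of the 7 genes, 6 had a promoter peak, with its centre within 1 kb of an annotated start, in both libraries, against 53.9% of all protein-coding genes. The longer lists gave the same 6, against 58.3% of all genes. Il2ra was the 1 gene with no promoter peak of the shorter list in either library, which held for 43.2% of protein-coding genes. The signals fell into a high, a middle and a low set. Il4ra was the highest at 7.43 ± 0.798 (SD, n = 2 here and below) and Il21r followed at 3.06 ± 0.235. Il2rg, Il15ra, Il2rb and Il7r lay between 1.70 and 0.844. The libraries of Il15ra and Il2rb overlapped, and no other neighbours in that order did. Among genes with a promoter peak, whose median signal was 5.70 and 5.09 in replicates 1 and 2, only Il4ra lay above the median. The place of Il21r rests on the 1 kb window: within 2500 bp of a start its strongest peak is the intron 1 site described below, 7.87 ± 1.14, which is above both medians and above Il4ra by less than the SD of either. The values of the other 5 genes were the same in that window. In CpG content all 7 promoters lay below the usual open promoter. The ratio of observed to expected CpG from 250 bases before to 50 bases after the start ran from 0.137 at Il7r to 0.590 at Il4ra, with a median of 0.770 over genes open in both libraries and 0.225 over the other genes.

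**Figure D1:**
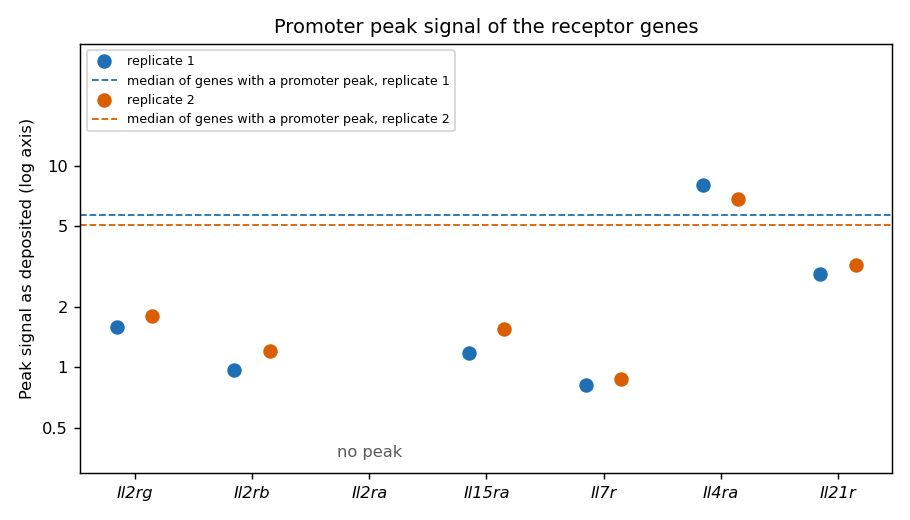
Promoter peak signal as deposited (log axis) for each gene, with 1 point per library and dashed lines at the median of protein-coding genes with a promoter peak. Il4ra, at 7.99 and 6.86, lies above both lines, the other 5 genes with a peak lie below them, and Il2ra has no peak.

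Il2rg encodes the shared gamma chain (chrX:101264378-101268255, minus strand). Its promoter peak at the first exon had a signal of 1.59 in replicate 1 and 1.81 in replicate 2, a mean of 1.70 ± 0.151. That put it at percentiles 13.2 and 18.2 among genes with a promoter peak. The gene is short and its neighbours are close. Of the 8 sites found in both libraries within its 43.9 kb span, 4 were promoters of Foxo4 and Med12, and these included the strongest, at the Foxo4 promoter, with signals of 5.79 and 6.91. The span held 21.7 peaks per 100 kb, at percentile 97.2 of protein-coding genes, and that density therefore counts the promoters of neighbours. The 3 other distal sites lay 7.41 and 11.4 kb downstream of the start and 17.5 kb upstream, with mean signals of 1.16 ± 0.429, 1.87 ± 0.565 and 1.71 ± 0.401. The sites at 11.4 and 17.5 kb each held a CTCF word that overlapped footprints of both libraries. CTCF is the factor that anchors chromatin loops.

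Il2rb encodes the beta chain, which the IL-2 and IL-15 receptors share (chr15:78479256-78495271, minus strand). Its promoter peak lay in exon 1, with a signal of 0.975 and 1.20 in replicates 1 and 2, a mean of 1.09 ± 0.159. Both values lie low among genes with a promoter peak, at percentiles 6.34 and 11.1. Each library held 3 peaks in the span, the same 3 sites. The upstream site, printed above, lay 19.5 kb from the start with signals of 2.70 and 1.55, higher than the promoter in both libraries. The downstream site lay 19.5 kb past the start with 1.38 and 1.67. Neither distal site was inside the gene, and the upstream one lay close to the limit of the flank. The span held 10 and 11 footprints, and 5 were found in both libraries.

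Il2ra encodes the alpha chain of the IL-2 receptor, which raises its affinity (chr2:11642807-11693193, plus strand). Within 1 kb of its start, the longer list of replicate 2 held a peak with a signal of 0.724, 0.364 kb upstream, and replicate 1 held none. The lowest q-value there was 0.00450 in replicate 2, and replicate 1 had no base with a q-value under 0.05. The gene nevertheless had 5 distal sites in both libraries, 3 in intron 1 and 2 upstream. The strongest, 21.3 kb into the gene, had signals of 5.69 and 4.85, a mean of 5.27 ± 0.597, which lay at percentiles 86.4 and 85.1 of all peaks of the list. The next, at 10.7 kb, had 2.08 and 3.41, and its centred ratio between libraries, 0.89 on the log2 scale, lay outside the central 95% of all pairs, -0.99 to 0.69. Of the 39 shared sites of the 7 genes, the Il21r sites at 4.11 and 33.1 kb, with 0.96 and 0.71, lay outside it too. The third intronic site, at 29.5 kb, had 1.80 and 1.27. The upstream pair at 7.17 and 6.55 kb had mean signals of 1.95 ± 0.101 and 1.54 ± 0.198.

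Most sites that the libraries did not share at Il2ra were in replicate 2. Outside the 7 sites that both shorter lists held, 2 of which are the Il15ra promoter, the span had 10 sites. Of these, 3 were peaks of the shorter list of replicate 2 only, 6 were in a longer list only, all in replicate 2, and 1 was in replicate 1 only. Of the 3, the site 5.51 kb upstream, with a signal of 1.66, was also in the longer list of replicate 1, with 1.33. Footprints followed, with 28 in replicate 1 and 60 in replicate 2. Of these, 60.7% of the footprints of replicate 1 and 28.3% of those of replicate 2 were found in the other library, against 57% and 51.4% of all footprints.

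Il15ra encodes the alpha chain that presents IL-15 (chr2:11705290-11734317, plus strand) and is the next member downstream of Il2ra. It had 2 neighbouring peaks at its start in both libraries. The stronger, 480 bp past the first annotated start, had signals of 1.17 and 1.55, a mean of 1.36 ± 0.269. The weaker, at 40 bp, had 0.743 and 1.04, a mean of 0.893 ± 0.213. No distal site was found in both libraries, and 1 intronic peak, 5.02 kb into the gene with a signal of 0.671, was listed in replicate 1 only. The span of Il15ra held 3.62 peaks per 100 kb, near the median of 3.81 over all protein-coding genes and below the 6.16 of genes with an open promoter.

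Il7r encodes the alpha chain of the IL-7 receptor (chr15:9505788-9530176, minus strand). It had the lowest promoter signal of the 6, 0.814 in replicate 1 and 0.874 in replicate 2, a mean of 0.844 ± 0.0423. These values lie at percentiles 4.52 and 6.72 among genes with a promoter peak. The promoter was the only peak of the shorter lists in its 64.4 kb span, which gives 1.55 peaks per 100 kb at percentile 30.8 of protein-coding genes. Each library held 2 footprints there, of which 1 overlapped between them. The longer list of replicate 2 added a site 3.70 kb upstream, with a signal of 0.509 and a lowest q-value of 0.0127, and 1 in intron 1 with a signal of 0.463. Replicate 1 held neither peak. An enhancer a few kilobases upstream of Il7r, bound by the glucocorticoid receptor and FOXO1 in T cells, is known, and the printed stretch lies in that region. It held neither the short glucocorticoid receptor word AGAACA nor the FOXO word TTGTTTAC, and no match says only that these letters are not in this window. In bulk tissue, a site open in few cells and a site weakly open in many cannot be told apart.

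Il4ra encodes the chain shared by the IL-4 receptor and the type II receptor for IL-4 and IL-13 (chr7:125552120-125579474, plus strand). Its promoter signal was 7.99 in replicate 1 and 6.86 in replicate 2, at percentiles 66.3 and 63.0 among genes with a promoter peak. An ETS word, AGGAAG, and an SP/KLF word, GGGCGG, overlapped footprints of both libraries at this promoter. Intron 1 held a site at 4.88 kb with signals of 5.88 and 7.59, a mean of 6.73 ± 1.21, near the level of the promoter. The other intronic site, at 9.38 kb, was weaker at 2.43 ± 0.358. Beyond the gene, a site 29.5 kb from the start had 6.63 and 4.88 and held a CTCF word that overlapped footprints of both libraries. A further 3 sites, at 32.1, 36.8 and 41.9 kb, had mean signals of 2.58 ± 0.538, 2.22 ± 0.548 and 3.03 ± 0.0217. Those 3 also lie in the 20 kb upstream of Il21r, its neighbour on the same strand, and are counted once in the totals.

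Il21r encodes the cytokine-specific chain of the IL-21 receptor (chr7:125603429-125633570, plus strand) and had the most sites of the 7. Its span held 24 peaks in replicate 1 and 19 in replicate 2, or 30.7 ± 5.04 per 100 kb, at percentile 99.3 of protein-coding genes. With peaks within 500 bp of each other joined, the mean count of 21.5 fell to 13.5. Of its 16 sites in both libraries, 1 was the promoter, with signals of 2.89 and 3.22, 6 were intronic, 6 lay downstream and 3 upstream. The strongest site of all 7 genes lay past the end of the gene, 32.2 kb from the start, with signals of 8.98 and 10.4, a mean of 9.71 ± 1.03 at percentiles 93.5 and 95.7 of all peaks. It belongs to a row of 6 sites between 32.2 and 35.5 kb, whose weakest had a mean of 1.55 ± 0.254. Inside the gene, the strongest sites were in intron 1 at 2.38 kb, with 8.68 and 7.06, and in intron 7 at 27.1 kb, with 5.49 and 6.46. The intron 7 site held 3 ETS words that overlapped footprints of both libraries. Each of these 3 distal sites exceeded the promoter of Il21r in both libraries.

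Il21r also held most of the sites that differed between the shorter lists, with 8 peaks in that of replicate 1 only and 3 in that of replicate 2 only. Among the 8, 3 were also in the longer list of replicate 2. These included the site 26.5 kb into the gene, with 0.653 in replicate 1 and 0.900 in that longer list. Of the 8, 6 lay in the gene body and were weak, with signals from 0.215 to 0.653, at or below percentile 9.40 of all peaks of replicate 1. The weakest, 15.3 kb into the gene with 0.215, was at percentile 0.143. Their q-values were nevertheless low. The peak in exon 6, with a signal of 0.644, had a lowest q-value of 5.60e-26, and replicate 2 had no base with a q-value under 0.05 there. Conversely, the peak of the longer list at 2.51 kb in intron 1 of Il4ra had a higher signal in replicate 1, 1.25, with a lowest q-value of only 0.00102, and was in neither shorter list. Signal and q-value therefore ranked these 2 peaks of replicate 1 in opposite orders.

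**Figure D2:**
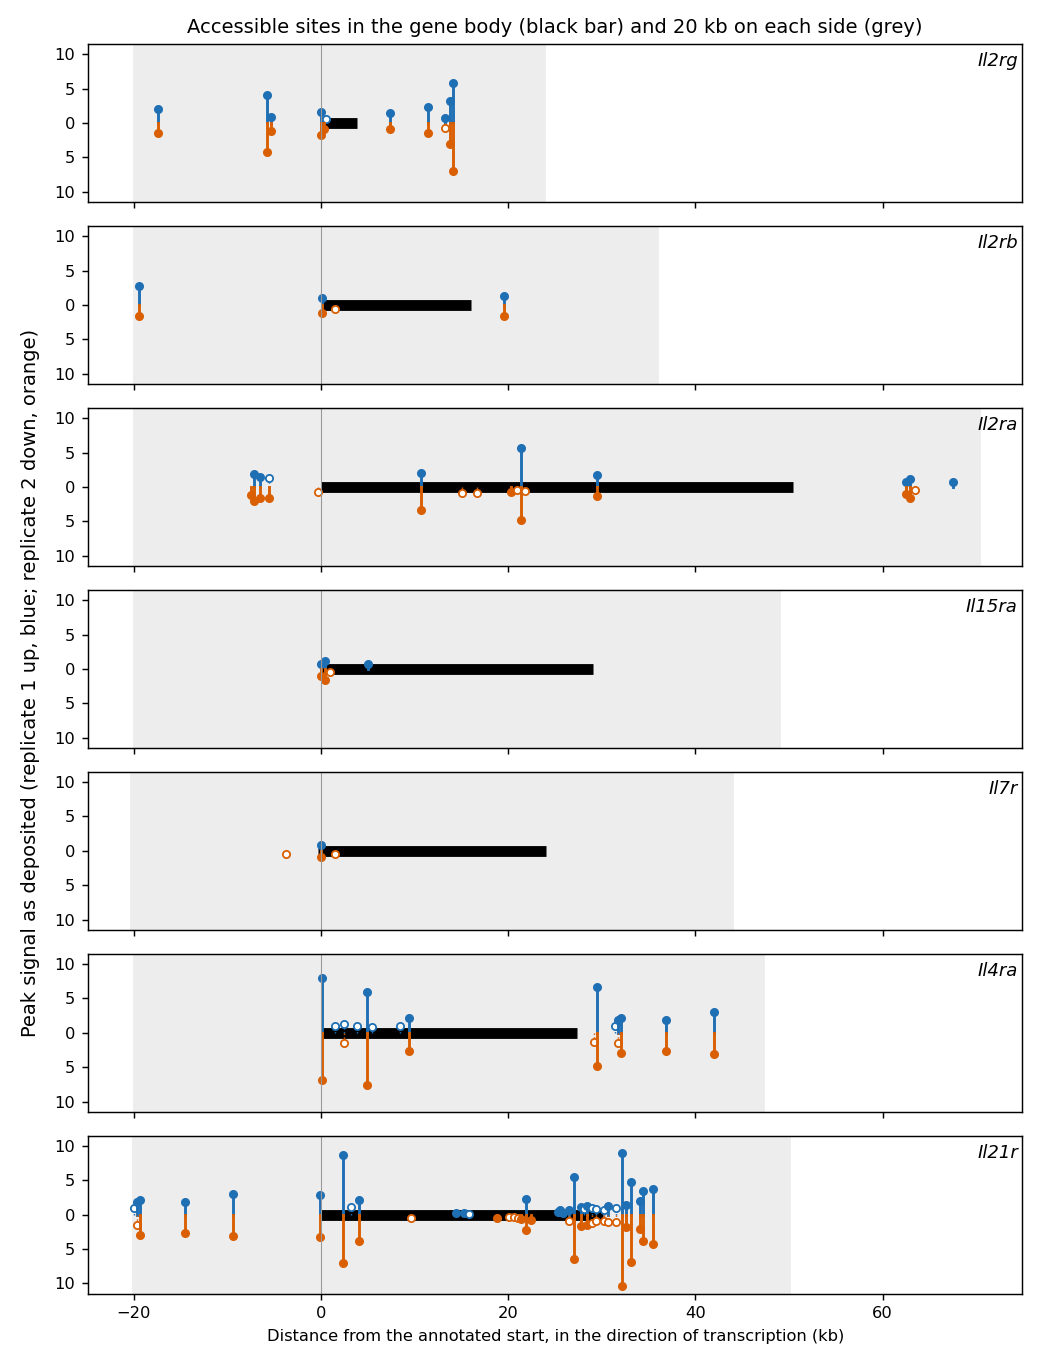
Accessible sites of the 7 genes by distance from the 5′-most annotated start in kb, drawn to 1 scale, with peak signal of replicate 1 upward and of replicate 2 downward. Filled points are peaks of the shorter lists and open points are peaks of a longer list only. Il21r, with its strongest site at 32.2 kb, and Il4ra carry the tallest sites, and Il7r has its promoter as its only filled site, with 2 weak open points in replicate 2.

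Across the 7 genes there were 84 sites, each counted once. Of these, 39 were in the shorter lists of both libraries, 10 were in that of replicate 1 only, 7 were in that of replicate 2 only and 28 were in a longer list only. Of the 17 in 1 shorter list, 5 were in the longer list of the other library. Of the 39, 7 were promoters of the members, 4 were promoters of neighbours and 28 were distal, with 11 in introns and 17 outside the gene. By peaks, 24% of those in the spans in replicate 1 and 26.1% in replicate 2 lay within 1 kb of a start site, against 43.6% and 44.1% of all peaks. These shares rest on 12 of 50 and 12 of 46 peaks. Of the 39 sites, 35 had a footprint in both libraries.

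**Figure D3:**
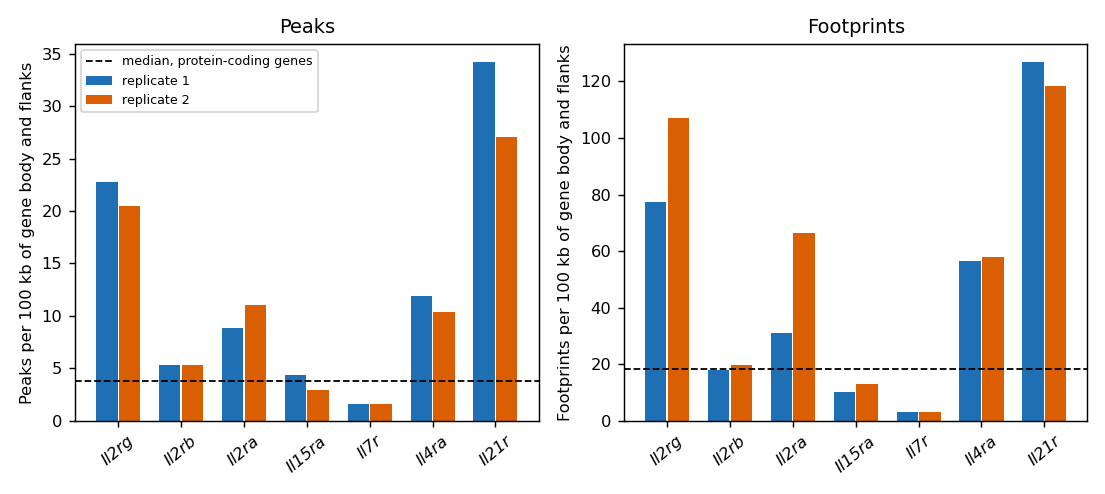
Peaks and footprints per 100 kb of gene body and flanks, with 1 bar per library and a dashed line at the median of protein-coding genes. Il21r, at 34.2 and 27.1 peaks per 100 kb, and Il2rg stand highest, Il7r, at 1.55 in both, stands lowest, and the footprints of Il2ra differ most between the libraries.

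The libraries agreed on peaks about as often as over the genome. Of the 50 peaks of replicate 1, 78% were found in the shorter list of replicate 2, against 79.4% of all peaks, and of the 46 of replicate 2, 84.8% were found in that of replicate 1, against 80.7%. With either list of the other library the shares were 88% and 87.0%, against 91.6% and 89.4%. A footprint lay in 78% of these peaks in replicate 1 and in 93.5% in replicate 2, against 88.7% and 88.6% of all peaks. Of 185 and 232 footprints, 52.4% and 40.9% were found in the other library, both below the 57% and 51.4% of all footprints. In replicate 2, Il15ra at 22.2% (2 of 9 footprints) and Il2ra at 28.3% (17 of 60) had the lowest shares. Only Il4ra, at 53.8% (21 of 39), lay above 51.4%. In signal, none of the 39 sites differed by over 2-fold after centring, against 2.51% of all pairs. The centred ratio of replicate 2 to replicate 1 ran from -0.63 to 0.96 on the log2 scale with a median of 0.37, and 30 of 39 sites were higher in replicate 2. The 9 that were higher in replicate 1 included the Il2rg sites at 11.4 and 17.5 kb, the site beyond Il4ra at 29.5 kb and the site upstream of Il2rb.

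**Figure D4:**
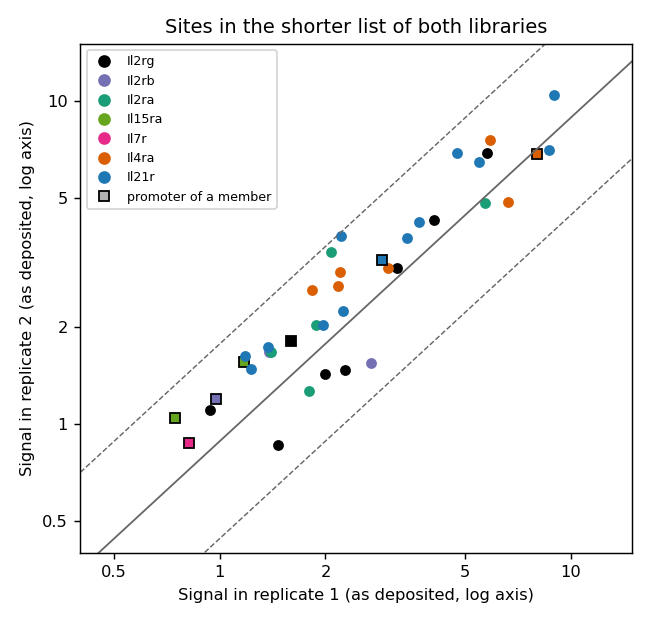
Signal in replicate 1 against replicate 2 (both log axes) for the 39 sites in both shorter lists, coloured by gene, with squares for promoters of members. The solid line is the median ratio of all pairs and the dashed lines are 2-fold from it; all 39 points lie between the dashed lines and 30 lie above the solid one.

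Words that transcription factors are known to bind were searched on both strands in 150 bases at the centre of each of the 39 sites and of every peak. The 39 sites are in both shorter lists, while all peaks include those in 1 library only. A smaller share of peaks in the spans lay near a start site, as given above, and the comparison was not matched for this. ETS words, CGGAAG or AGGAAG, were in 46.2% of the sites by the peaks of replicate 1 and 48.7% by those of replicate 2, against 33.8% and 36.2% of all peaks. ETS factors such as ETS1 and GABPA act at many T cell genes. RUNX words, TGTGGT or TGCGGT, were in 23.1% and 25.6%, against 17% and 17.4%. The STAT word TTCNNNGAA, where N is any base, was in 12.8% and 10.3% of the sites, against 3.29% and 3.26%. The 12.8% are 5 sites, so a single site moves the share by over 2 percentage points. STAT words lay at the Il2rb site 19.5 kb downstream and at the Il4ra sites at 9.38, 29.5 and 41.9 kb, and 1 more lay in the Il2ra site 6.55 kb upstream. None of these 5 overlapped footprints of both libraries. The SP/KLF word GGGCGG was in 17.9% and 12.8%, against 26.3% and 25.8%.

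Other families differed from all peaks by about as much as RUNX words. The E-box CAGGTG was in 25.6% of the sites by both libraries, against 19.2% and 19.8% of all peaks. The E-box CAGCTG was in 23.1% and 15.4%, against 13.1% and 14.1%. Below all peaks lay the TCF7 and LEF1 word CTTTGA, in 5.13% and 2.56% against 8.17% and 8.63%, and the MYB word AACTGNC, in 0% and 2.56% against 6.84% and 6.98%. The short glucocorticoid receptor word AGAACA was in 2.56% and 5.13%, against 8.94% and 9.1%. With 39 sites, each of these shares rests on at most 10 sites.

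The CTCF word, CC and AGG with any 3 bases between them and then GGC after any 1 base, was in 10.3% of the sites in both libraries, against 11.1% and 8.17% of all peaks. Its 4 sites were those of Il2rg at 11.4 kb downstream and 17.5 kb upstream, of Il4ra at 29.5 kb and of Il21r at 4.11 kb. A wider form that also allows AGA or TGG for AGG was added after the printed sequences were seen. It was in 17.9% of the sites in both libraries, against 22% and 15.9% of all peaks. It added the Il2ra intron sites at 21.3 and 29.5 kb and the site upstream of Il2rb, where the words overlapped footprints of both libraries. In the printed Il2rb sequence the word CCCTCTGGTGGC lay at bases 112 to 123, and in the strongest Il2ra intron site CCGCTAGAGGGC lay at bases 101 to 112, all in capitals. The sites with the wider word leaned to replicate 1. Of the 7, 6 were lower in replicate 2, with a median centred ratio of -0.31 on the log2 scale. Of the other 32 sites, 3 were lower in replicate 2, and their median was 0.41. Over all pairs, 85.0% of the 7533 with the word were lower in replicate 2, with a median of -0.46. Of the 29961 pairs without it, 41.2% were lower, with a median of 0.09. The 32 member sites without the word therefore leaned further to replicate 2 than those pairs, with 9.4% lower in it. The split by this word was chosen after the values were seen and has no test. The direction at 6 of these 7 sites was therefore that of peaks with the word in the whole lists. The exception, the Il21r site at 4.11 kb, had a centred ratio of 0.96, the highest of the 39 sites. A match is a description of the letters and not of binding, and the CAST allele was not searched. The words overlap in part, as an SP/KLF word lies over the CTCF word of the Il2rg site at 11.4 kb.

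**Figure D5:**
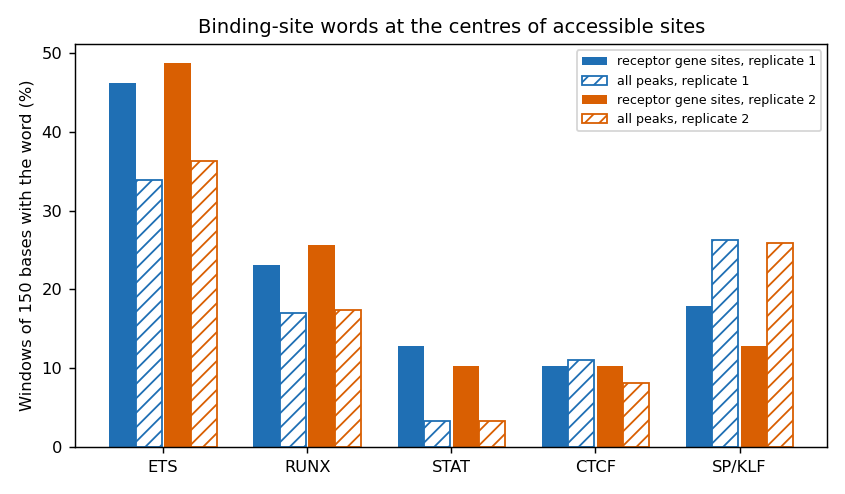
Percentage of 150-base windows that hold a word of each family, for the 39 sites of the 7 genes (filled) and for all peaks (hatched), by library. Of the 5 families drawn, STAT, ETS and RUNX words stand above all peaks, SP/KLF words below, and CTCF words close to them.

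The rest of the pathway was read from fixed lists by the same promoter measure, against the 53.9% of all protein-coding genes with a promoter peak in both libraries. Of 7 ligand genes, 2 had one. Il7, which thymic epithelium makes, had signals of 0.376 and 0.554, and Il15 had 0.564 and 0.665. Il2, Il4, Il9, Il21 and Tslp had none in either library. Of 3 further receptor chains, all had one: Crlf2, the receptor of TSLP, at 5.27 ± 1.33, Il9r at 2.75 ± 0.489 and Il13ra1 at 0.476 ± 0.137. All 6 kinase and factor genes had one, with Stat3 at 16.8 ± 4.17, Jak1 at 11.1 ± 1.54 and Stat6 at 6.08 ± 0.498 the strongest. Jak3, whose product binds the gamma chain, was lowest at 2.24 ± 0.154. All 6 feedback and target genes had one, led by Socs1, an inhibitor of JAK kinases, at 10.2 ± 1.78, then Mcl1 and Socs3 at 7.22 ± 0.575 and 7.07 ± 1.84.

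Of 29 other cytokine receptor genes, 18, or 62.1%, had a promoter peak in both libraries, near the 53.9% of all protein-coding genes. A further 2, Il1r1 and Osmr, had one in the shorter list of replicate 2 only and in the longer lists of both. The longer lists gave 20 genes, against 58.3% of all genes. In neither shorter list, 9 had none, as did 43.2% of all genes. Those without one included Il5ra, Il12rb1, Il13ra2, Il23r, Il1rl1, Csf1r, Csf2rb and Csf3r. The strongest were Ifngr1 at 21.3 ± 0.890, Tgfbr1 at 15.1 ± 0.717 and Ifnar1 at 13.9 ± 0.424, receptors of interferons and of TGF-beta. Il4ra, the strongest of the 7 members, lay below these 3. It also lay below Il3ra, at 7.81 ± 0.445, though the libraries of Il3ra and Il4ra overlapped.

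Marker genes placed the tissue. Of 12 T cell markers, 11 had a promoter peak in both libraries, Cd8b1, Cd3g and Lck among them, against 53.9% of all protein-coding genes. Cd4 had one in the shorter list of replicate 2 only. None of the 5 B cell and none of the 5 myeloid markers had one in both shorter lists, and Cd79a and Csf1r had none in either. In 1 shorter list only, the B cell markers Ms4a1 and Pax5 had one in replicate 2, with 0.554 and 0.744. The myeloid marker Itgam had one in the shorter list of replicate 1, with 1.18, and in the longer list of replicate 2, with 1.29. Natural killer markers had 1 of 5 in both (Klrd1, 0.475 ± 0.00137), and Eomes had one in the shorter list of replicate 1 only, with 1.02. In both libraries, thymic epithelial markers had 2 of 6 (Aire and Epcam) and stromal markers 3 of 3. Of the 4 regulatory T cell markers, 3 had one, Tnfrsf18, Ikzf2 and Ctla4, and Foxp3 had none in either shorter list. By the longer lists, all 12 T cell, 2 of 5 B cell, 2 of 5 myeloid and 2 of 5 natural killer markers had one in both. Over all protein-coding genes that share was 58.3%. Cd79a and Foxp3 had one in the longer list of replicate 2 only, with 0.939 and 0.718. The share of each cell type in the signal at Il2ra, Il2rb or Il7r was not tested.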

How the data were processed

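DNase-seq of thymus gave 2 libraries in 1 group. Per the file headers and labels, files are on mm10 and made per library, without pooling; which aligner and peak caller were used, with which versions and thresholds, is not given in the sources used here. Values of peak signal are as the authors deposited them, with no stated scale. The q-values per base run were deposited by the authors and were used only to give the lowest value in a site. Every footprint carried the constant 0.01, so positions alone were used.

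From these files, peaks of the shorter list (main) and the longer list were taken in each gene body and 20 kb flanks, and sites were made by joining intervals that overlapped between lists and libraries. Peaks were shared if they overlapped by 1 bp. Words were matched to footprints by overlap too, so a footprint may cover only part of a word. Distances run from the 5′-most start in the GENCODE M21 basic annotation to the site's centre, and exon numbers follow the transcript with the longest coding sequence. A promoter signal is that of the strongest peak within 1 kb of any annotated start. Percentiles of promoter signal are among protein-coding genes with a promoter peak, and those of peak density among all protein-coding genes. Percentiles of sites are among all shorter-list peaks of the library. Tools were Python 3.11.15, numpy 2.4.6, pysam 0.24.0 and bedtools 2.31.1; overlap and word functions were tested on simulated data. With 1 group and no contrast there is no test, and all values are descriptions. All 7 members are named, with the promoter peak and up to 5 strongest sites each. From the lists, genes without a promoter peak in either library and the 3 strongest are named; others were named after their values were seen, and a few listed genes are left out of the text. The members and lists were chosen with earlier results of these data known. Alternatives were the longer list, other flanks and promoter windows, joined or stronger peaks, stricter overlap and each library alone.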

Additional observations from a re-analysis of the deposited data

How the results depend on the processing

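The count of genes with a promoter peak in both libraries stayed at 6 under all alternatives run, including windows of 500 and 2500 bp and each library alone. The summed peaks per span count a peak in each span that holds it, so overlapping spans count some peaks more than once. Their mean over the libraries was 54, against 48 with each peak given to its nearest member only. The sum was 24 in the gene bodies alone and 35 for peaks at or above the median signal of their library. It lay between 51 and 57 in single libraries. Footprints summed over spans in the same way, 230 as a mean, were 97.5 in gene bodies and 356 with 50 kb flanks. Dividing by the library's median peak signal put the median promoter signal of the members, 1.53, at 1.00 library medians. With either list of the other library, the share of peaks found there was 87.5% in place of 81.4%. Words counted only in footprints extended by 5 bp fell from 47.4% to 19.2% for ETS, from 24.4% to 10.3% for RUNX and from 10.3% to 8.97% for CTCF. Whole peaks gave 26.9% for RUNX, and the wider CTCF word 17.9%. The cause was not tested, apart from the smaller or larger windows that these settings use by construction. No paired analysis was possible because there is 1 group and no test. With 2 libraries, unknown depth and 1 signal value per peak, the SD is from 2 values, and peaks near the limit of a list can be absent from the other library at this depth.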
